A study of Bos taurus with 20 samples.

Results

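The AP-1 and immediate early transcription factors FOS, FOSB, FOSL1, FOSL2, JUN, JUNB, JUND, ATF3, EGR1 and EGR2 were followed across clonal mesenchymal stem cell (MSC) cultures of bovine adipose tissue. They were taken by symbol, in a choice made with earlier results of these data known, and are 10 of the 33063 named genes in the count table. RNA was sequenced from 20 clones, each a population grown from 1 sorted cell and sampled before any adipogenic induction. Of these, 10 were adipogenic (A), chosen for the most lipid-stained cells after differentiation of sister cultures, and 10 were non-adipogenic (N), which had not differentiated. The clones came from visceral fat of 4 Holstein Friesian x Aberdeen Angus calves, with no engineered allele. Animals 17 and 20 gave 1 A and 1 N clone each, and animals 22 and 23 gave 4 A and 4 N clones each, so conditions were compared within animals. All clones had been grown in serum with basic FGF, first with medium conditioned by other MSCs of the same animal, and were trypsinised and washed before lysis. Each clone is 1 library, so the spread given here is that between clones of a condition, and a level holds both the share of cells with a transcript and the amount per cell, which cannot be told apart. One library, N 22-5, stood apart: it held 9 reads of NT5E and 7 of THY1, surface markers of MSCs, at 0.508 and 0.395 CPM against medians of 83.2 and 50.1 CPM over the N clones, and had the highest sum of mesothelial markers. Without it 5 of the 6 members called below were called, JUND being lost.

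AP-1 is a dimer of basic leucine zipper proteins. Jun proteins pair with each other or with Fos proteins, which need a Jun partner to bind DNA, and ATF3 joins the same network. FOS, FOSB, JUN, JUNB, EGR1 and EGR2 are textbook immediate early genes: serum, growth factors and stress switch them on through MAP kinases and serum response factor within minutes, without new protein synthesis, and their messages decay quickly. In fat cell precursors FOS, EGR1 and EGR2 are known to rise briefly when differentiation is induced. FOSL1 and FOSL2 follow later and last longer, and JUND is the more constant Jun protein.

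Most members were lower in A clones, and edgeR called 0 higher (EGR2 alone at an unadjusted p under 0.05, and called by DESeq2). Of the 10 members, all of which passed the filter on low counts, 6 were called at an adjusted p under 0.05, and each of the 6 (FOS, FOSB, JUN, JUND, ATF3 and EGR1) was lower in A. Over all 12900 genes tested 20.6% were called, 10.3% as lower and 10.3% as higher in A. A decrease of at least 2-fold was found in 5 members, all but JUND of the 6, against 1.81% of all genes. The only member that was higher by more than 2-fold in the fit, EGR2, was not called by edgeR, while 3.95% of all genes were called higher by at least 2-fold. The median log2 fold change of the members was -0.94, and that of all genes tested was -0.01.

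**Figure D1:**
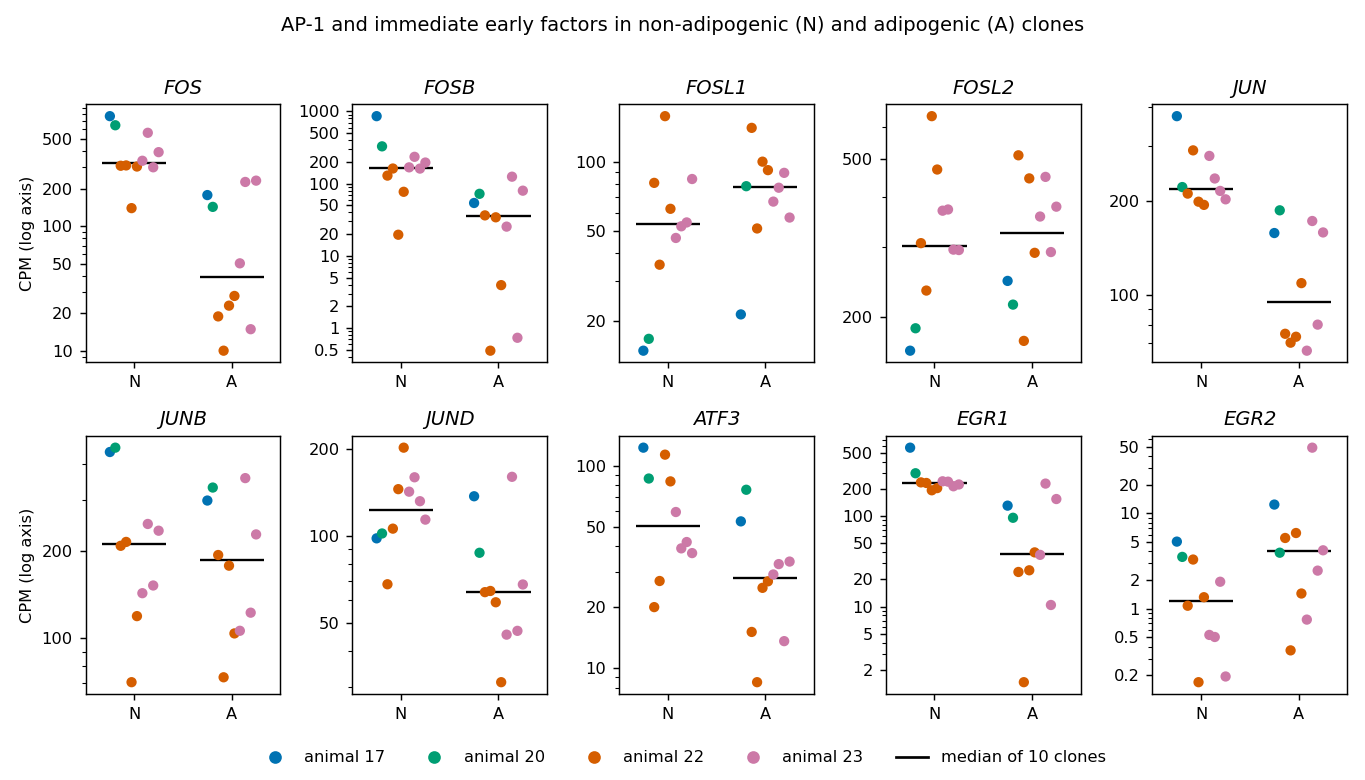
Level of each member in the 10 N and 10 A clones, in CPM (read counts scaled to library size) on a log axis that differs between panels. Points are clones coloured by animal and lines are group medians. JUN separates the groups, with A clones at 66.2 to 186 CPM and N clones at 194 to 373 CPM, whereas FOSL1, FOSL2 and JUNB overlap.

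FOS, the founding partner of JUN, was expressed in N clones at 140 CPM at the lowest, a median of 323 and 768 at the highest. In A clones it ranged from 10.0 CPM over a median of 39.1 to 233 CPM. Only N 22-5 of the N clones fell within the range of the A clones, and 6 A clones were lower than any N clone. The means were 407 ± 192 CPM in N and 92.8 ± 92.5 CPM in A (SD, n = 10 each). The fitted log2 fold change was -2.55 (SE 0.47, 95% interval -3.53 to -1.56, adjusted p = 0.0025), or 5.84-fold lower in A. The decrease was seen in every animal, with log2 differences of -2.10, -2.18, -3.75 and -2.28 for animals 17, 20, 22 and 23, and the call held when any one clone was left out. With edgeR it was lost without animal 22 (-1.78, adjusted p = 0.069) and with animal 23 alone (-1.60, adjusted p = 0.22).

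The A clones were not alike in FOS. All 4 A clones of animal 22 were low, at 18.9, 23.1, 27.7 and 10.0 CPM, and in animal 23 they split into 15.0 and 50.5 CPM for A 23-62 and A 23-108 and 228 and 233 CPM for A 23-14 and A 23-68. The single A clones of animals 17 and 20 held 178 and 144 CPM. These clones, A 17-57, A 20-106, A 23-14 and A 23-68, were also the 4 highest A clones for FOSB, JUN, JUNB, JUND, ATF3 and EGR1. That is 7 of the 10 members with FOS included, chosen after their values were seen. The share of all genes with these same 4 clones on top was not computed. For FOSL1 the 4 highest A clones were 4 others. Among N clones, those of animals 17 and 20 were both above the rest in FOS (768 and 649 CPM), FOSB, JUNB and EGR1, though not in JUN, JUND and ATF3. They were also above the rest in EGR2 (5.06 and 3.5 CPM, the next being 3.28 CPM), and below the rest in FOSL1 and FOSL2. Clone and animal cannot be told apart for the single A clones of animals 17 and 20.

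**Figure D2:**
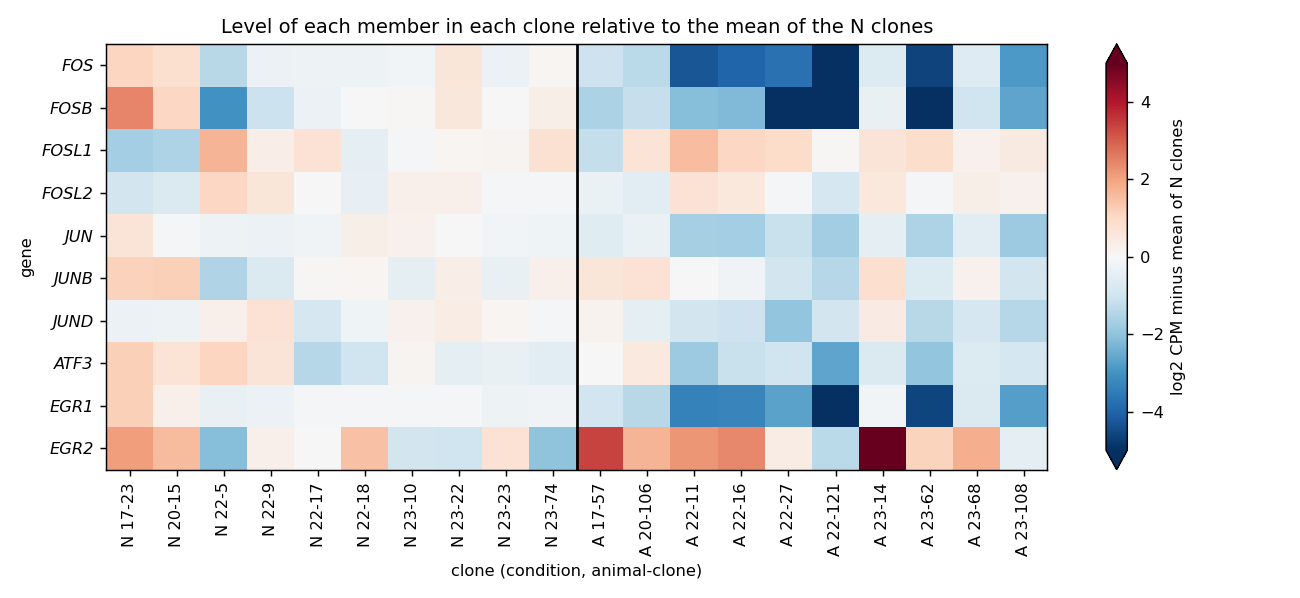
Level of each member (rows) in each clone (columns, named by condition, animal and clone) as log2 CPM minus the mean of the N clones. The colour scale ends at 5 in either direction. A 22-121 and A 23-62 are the darkest blue in FOS and EGR1, and in FOSB they and A 22-27 reach the end of the scale. A 23-14 stays near the N clones in FOS and EGR1, and FOSL1 and FOSL2 show no block of blue in A.

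FOSB, a FOS relative that also pairs with Jun proteins, had the broadest range. N clones held 19.7 CPM at the lowest, 165 at the median and 862 at the highest, and A clones 0.487, 35.3 and 125 CPM. Here 8 N clones lay above every A clone, and 3 A clones, A 22-27, A 22-121 and A 23-62, below every N clone. The log2 fold change was -2.24 (SE 0.70, 95% interval -3.71 to -0.76, adjusted p = 0.033), with means of 234 ± 236 CPM in N and 43.3 ± 40.3 CPM in A (SD, n = 10 each). FOSB was lower in A in all 4 animals, by between -3.99 and -2.18 on the log2 scale. The call was lost without N 17-23, A 17-57 or A 22-27, at an adjusted p from 0.054 to 0.06. With edgeR it was also lost without animal 17 (adjusted p = 0.059), animal 22 (adjusted p = 0.11) or animal 23 (adjusted p = 0.15). The same held with animal 22 alone (adjusted p = 0.305), animal 23 alone (adjusted p = 0.302) and no filter on low counts (adjusted p = 0.051).

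The Fos-related antigens were not called. FOSL1, the FRA1 protein of ERK-driven and migrating cells, ranged from 14.9 to 159 CPM in N clones (median 53.3) and from 21.5 to 141 CPM in A clones (median 77.7), and no A clone lay outside the N range. Its log2 fold change was 0.45 (SE 0.27, 95% interval -0.12 to 1.01, adjusted p = 0.24), with positive differences in all 4 animals, 0.53, 2.22, 0.31 and 0.31. FOSL2, which encodes FRA2, was at 333 ± 141 CPM in N and 336 ± 111 CPM in A (SD, n = 10 each). The interval of its log2 fold change, 0.05, ran from -0.37 to 0.47 (adjusted p = 0.88), so that a 2-fold change in either direction lay outside it, and its sign turned with several choices of clones.

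JUN, the principal transactivating Jun protein, was the member that separated the conditions. Its N clones held 194 CPM at the lowest, 218 at the median and 373 at the highest, and its A clones 66.2, 94.6 and 186 CPM. Every A clone was below every N clone, which 0.093% of the genes tested showed, 12 genes in all. The log2 fold change was -1.12 (SE 0.18, 95% interval -1.50 to -0.73, adjusted p = 0.0013), 2.17-fold lower, from means of 242 ± 56.4 CPM in N and 115 ± 48.3 CPM in A (SD, n = 10 each). The within-animal differences were -1.24, -0.25, -1.45 and -1.07 for animals 17, 20, 22 and 23, and the call held without any one clone. With edgeR it was lost without animal 23 (-1.22, adjusted p = 0.052) and with animal 23 alone (-0.96, adjusted p = 0.10). The gap between the groups was narrow, since A 20-106 at 186 CPM lay just below N 22-9 at 194 CPM.

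The 2 other Jun genes had smaller fitted changes, with an interval for JUND that overlaps that of JUN. JUND had 68.0 CPM at the lowest, 123 at the median and 202 at the highest in N, and 31.1, 64.1 and 160 CPM in A, so that in 7 A clones it was lower than in any N clone. An adjusted p of 0.047 came with a log2 fold change of -0.79 (SE 0.27, 95% interval -1.36 to -0.22). This call was close to the threshold, and leaving out one clone removed it for 13 of the 20 clones, namely N 22-5, N 22-9, N 23-10, N 23-22, N 23-23, N 23-74, A 22-11, A 22-16, A 22-27, A 22-121, A 23-62, A 23-68 and A 23-108, at an adjusted p from 0.055 to 0.086. In animal 17 JUND was higher in the A clone (137 against 98.0 CPM). The gene also overlaps the annotated span of IQCN in ARS-UCD2.0, the only member with an overlapping neighbour there, so some of its reads may be shared. JUNB, which can oppose JUN at some promoters, was not called. It stood at 228 ± 127 CPM in N and 199 ± 101 CPM in A (SD, n = 10 each), with a log2 fold change of -0.14 and an interval from -0.68 to 0.41 (adjusted p = 0.73), and the differences in the 4 animals ran from -0.56 to -0.06.

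**Figure D3:**
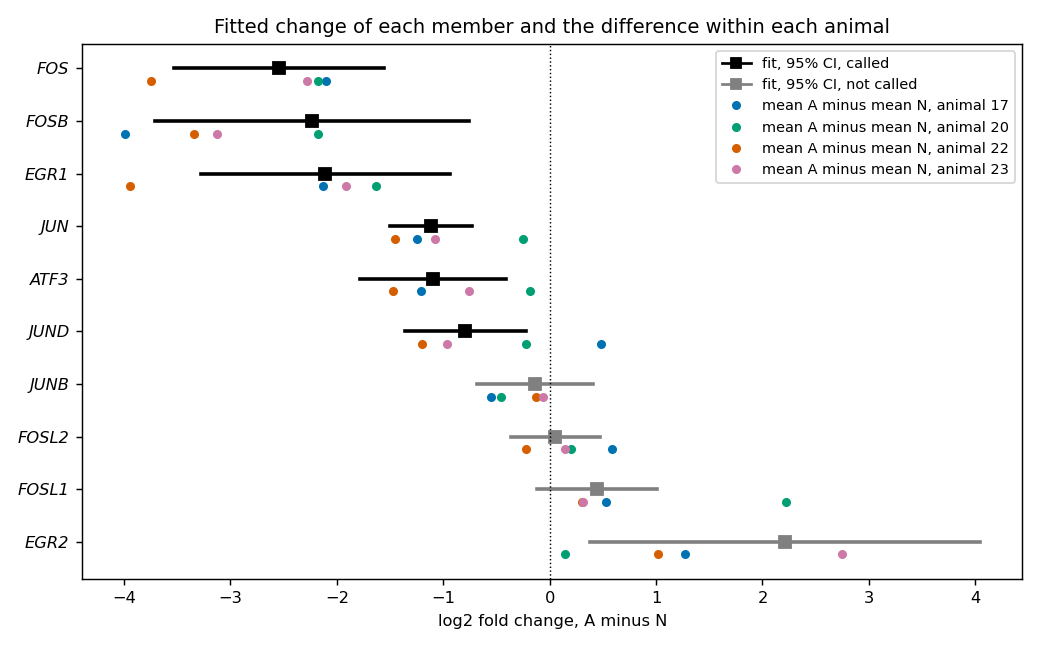
Log2 fold change of each member, A minus N, from the fit with animal as a block (squares with 95% intervals, black where the adjusted p is under 0.05, grey otherwise) and the difference of mean log2 CPM within each animal (circles). FOS, FOSB, EGR1, JUN and ATF3 are below 0 in all 4 animals, JUND is above 0 in animal 17, and the interval of EGR2, 0.37 to 4.04, is the widest.

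ATF3, a stress-induced partner and often a repressor, was at 20.0 CPM at the lowest, 50.6 at the median and 123 at the highest in N clones, and at 8.53, 27.9 and 76.1 CPM in A clones. The groups overlapped, with 3 A clones lower than any N clone and 4 N clones higher than any A clone. The log2 fold change was -1.10 (SE 0.32, 95% interval -1.78 to -0.41, adjusted p = 0.026), and it was lower in A in all 4 animals, least in animal 20 at -0.18. With edgeR the call was lost without animal 22 (-0.70, adjusted p = 0.076) and without animal 23 (-1.38, adjusted p = 0.17). It was also lost with animal 22 alone (adjusted p = 0.205) and animal 23 alone (adjusted p = 0.167). Within the N clones the highest levels were in N 17-23, N 22-5, N 20-15 and N 22-9.

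EGR1, a zinc finger factor that shares its serum response elements with FOS, lay in a narrower range in N than in A. N clones held 193 CPM at the lowest, 234 at the median and 570 at the highest, and A clones 1.46, 38.5 and 229 CPM. In 9 of the 10 A clones EGR1 was below every N clone, and A 23-14 was the exception. The log2 fold change was -2.11 (SE 0.55, 95% interval -3.27 to -0.94, adjusted p = 0.015), from means of 265 ± 111 CPM in N and 74.8 ± 75.1 CPM in A (SD, n = 10 each). The differences in animals 17, 20, 22 and 23 were -2.13, -1.63, -3.95 and -1.91, and no single clone carried the call. With edgeR it was lost without animal 22 (-1.35, adjusted p = 0.15) and without animal 23 (-2.81, adjusted p = 0.072). It was also lost with animal 22 alone (adjusted p = 0.092) and animal 23 alone (adjusted p = 0.39).

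EGR2, the second EGR gene and a known inducer of early adipogenic factors, had a fitted value of opposite sign to that of EGR1. It was scarce in N clones, at 0.169 to 5.06 CPM with a median of 1.2, and reached 0.365 to 49.1 CPM with a median of 3.99 in A clones, of which 4 lay above every N clone. The highest was A 23-14, at 49.1 CPM, followed by A 17-57 at 12.4 CPM. The log2 fold change of 2.21 (SE 0.87, 95% interval 0.37 to 4.04) did not pass with edgeR (unadjusted p = 0.021, adjusted p = 0.079), although the difference was positive in all 4 animals. It was called by DESeq2 (adjusted p = 0.0092), and by edgeR without N 22-18 (adjusted p = 0.04) or without A 22-121 (adjusted p = 0.05), and its value was 1.25 without A 23-14 (adjusted p = 0.13). Between 3 and 749 reads per clone stand behind these levels.

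The size of the change was then compared between animals 22 and 23, each with 4 A and 4 N clones. With edgeR's interaction test none of the 10 members differed at an adjusted p under 0.05, as against 0.031% of 12915 genes. At an unadjusted p under 0.05 it was 1 member and 1170 genes, and DESeq2's interaction test called 0 members. That member was FOS, whose decrease in animal 23 was smaller by 2.13 on the log2 scale (SE 0.89, 95% interval 0.23 to 4.03, unadjusted p = 0.031, adjusted p = 0.51). For EGR1 the difference was 2.16, with an interval from -0.24 to 4.56 (adjusted p = 0.59). The interval of EGR1 holds both equal changes and changes that differ severalfold, and that of FOS starts above 0 but did not pass after adjustment.

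The spread among clones of 1 animal and condition was larger in A than in N for 8 of the 10 members, against 42.6% of all genes tested. The differences of the 8 ran from 0.0182 for FOSL2 to 1.67 for FOSB. The measure was the mean absolute deviation of log2 CPM from the median of a clone's own animal and condition, over the 16 clones of animals 22 and 23. For EGR1 it was 1.40 in A and 0.0954 in N (exact permutation test, 4900 arrangements, two-sided p = 0.0061). For FOSB it was 2.24 in A and 0.568 in N (exact p = 0.0098), and for FOS 0.982 and 0.289 (exact p = 0.034). These 3 members had an unadjusted p under 0.05, as did 3.84% of all genes in the same direction. None passed after adjustment over the 12900 genes, with an adjusted p from the exact test of 0.20 for EGR1, 0.25 for FOSB and 0.40 for FOS, while 107 genes did. JUN, at 0.377 against 0.157, had an exact p of 0.079, EGR2, at 1.51 against 0.84, one of 0.25, and FOSL2, at 0.36 against 0.342, one of 0.88. When each clone was left out in turn, the unadjusted exact p was under 0.05 in 16 of 16 fits for EGR1 and in 14 of 16 for FOSB, the exceptions being those without A 22-27 (0.16) or A 22-121 (0.17). Adjusted over the members only, EGR1 passed in 3 of these 16 fits and FOSB in 3, with an adjusted p from the exact test of up to 0.155 and 0.396.

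Among these 16 clones FOS and EGR1 moved together. After centring log2 CPM within animal and condition, Pearson's r was 0.836 (permutation test, p = 0.00042, adjusted over 45 pairs of members p = 0.019) and Spearman's rho 0.879 (permutation test, p = 0.00066, adjusted p = 0.015). Without A 23-62 and A 23-68, the clones farthest from the median of FOS, r was 0.768, and with each clone left out in turn it ran from 0.749 to 0.947. Within the 8 A clones r was 0.872 (exact permutation test, p = 0.0052, rho 0.905, exact p = 0.014), and within the 8 N clones it was 0.697 (exact permutation test, p = 0.076, rho 0.69, exact p = 0.073).

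**Figure D4:**
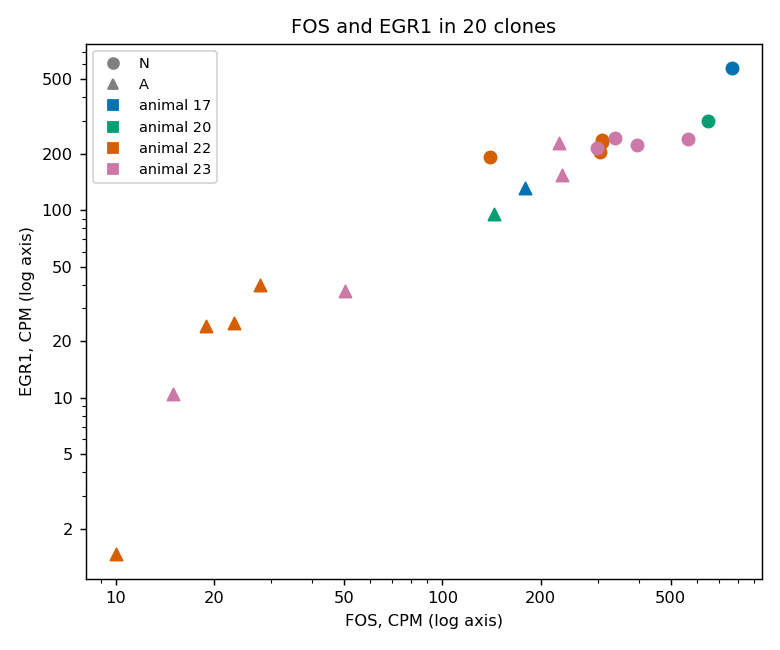
EGR1 against FOS in each of the 20 clones, both in CPM on log axes, with circles for N, triangles for A and colours for animals. N clones lie between 193 and 570 CPM of EGR1, and A clones extend from A 23-14 and A 23-68 among or next to them down to A 22-121, at 10.0 CPM of FOS and 1.46 CPM of EGR1.

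FOS and EGR1 were the only pair of the 45 to pass with both measures. By rank 4 more passed: FOSB with JUNB (rho 0.868, permutation test, adjusted p = 0.0045, r 0.781, adjusted p = 0.055), JUN with EGR1 (rho 0.844), JUNB with EGR1 (rho 0.762) and JUNB with EGR2 (rho 0.768), the last 3 each at an adjusted p of 0.038 in the permutation test. JUNB, which was not called between conditions, thus ran with FOSB and EGR1 from clone to clone by rank only. By r the last 3 pairs had an adjusted p in the permutation test of 0.22 (JUN with EGR1), 0.17 (JUNB with EGR1) and 0.055 (JUNB with EGR2). FOS and FOSL1 gave an r of -0.199 (permutation test, p = 0.32, adjusted p = 0.54, rho -0.206, adjusted p = 0.74). As a description over the same 16 clones, the 5 genes outside the members closest to FOS were CITED2 (r = 0.967), PPP1R15A (0.915), RAB21 (0.897), TNFSF4 (0.891) and TRIB1 (0.874). Those closest to EGR1 were PPP1R15A (0.932), TRIB1 (0.918), POLR3C (0.887), ANKMY2 (0.887) and STBD1 (0.883). PPP1R15A and TRIB1 were thus named for both. FOSL1 had DUS1L (0.936), ZNF205 (0.911), POLRMT (0.902), LOC100847773 (0.887) and PES1 (0.874), none of them shared with FOS or EGR1. Of all these genes only TNFSF4 was called between conditions, higher in A by 3.19 on the log2 scale (adjusted p = 0.0043).

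**Figure D5:**
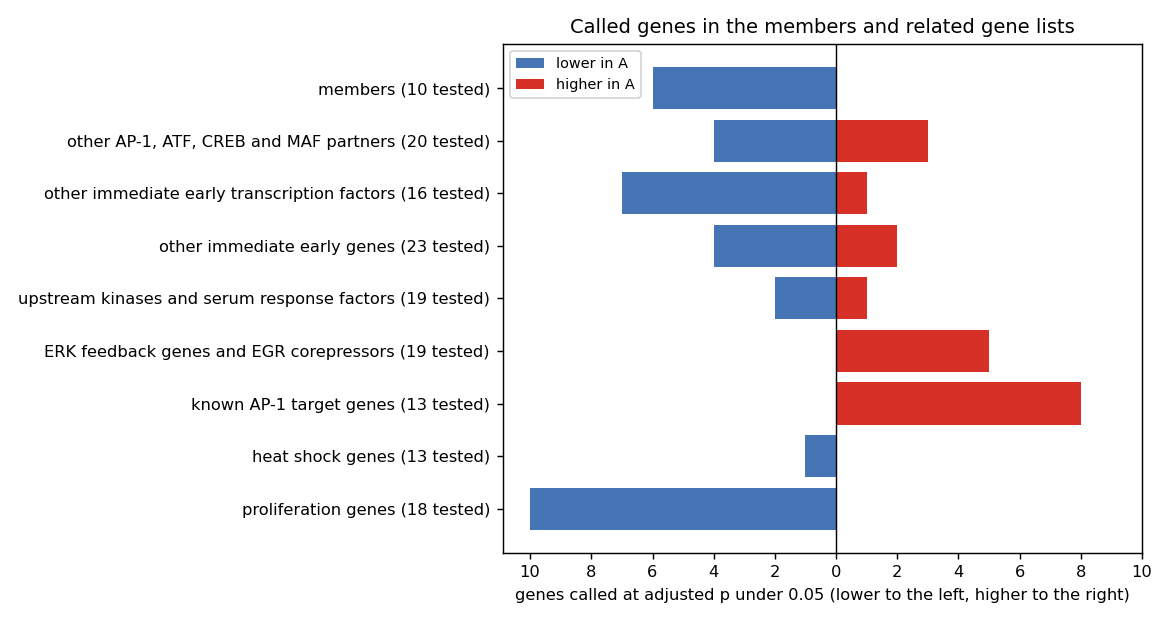
Number of genes called at an adjusted p under 0.05 in the members and in related gene lists, lower in A to the left and higher in A to the right, with the number tested in brackets. Other immediate early transcription factors lean to the left, with 7 lower and 1 higher, and known AP-1 target genes to the right, with 8 higher. Of all genes tested 20.6% were called.

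Immediate early transcription factors outside the members leaned the same way. Of 18 listed, 16 were tested and 8 called, 7 lower and 1 higher in A, with a median log2 fold change of -0.62 against -0.01 over all genes. Of all genes tested 20.6% were called, 10.3% as lower in A. KLF6, KLF2 and ID2 had the smallest adjusted p among the 7, with log2 fold changes of -0.73 (SE 0.12, adjusted p = 0.0017), -1.15 (SE 0.20, adjusted p = 0.0017) and -0.84 (SE 0.17, adjusted p = 0.0045). KLF2 is known to hold adipogenesis back, and ID2 blocks basic helix-loop-helix factors. MYC, a growth-factor target that drives proliferation, was the 1 higher gene, at 77.6 ± 25.3 CPM in A and 50.9 ± 8.30 CPM in N (SD, n = 10 each, log2 fold change 0.60, adjusted p = 0.023). Of 25 other immediate early genes, 23 were tested and 6 called, against 20.6% of all genes. Of the 6, 4 were lower and 2 higher, and the median log2 fold change over the list was -0.04. The 3 lower ones with the smallest adjusted p were CCNL1, a cyclin of splicing (-0.73, adjusted p = 0.00043), ZFP36, which speeds the decay of AU-rich messages (-1.22, adjusted p = 0.00078), and DUSP1, the phosphatase of p38 and JNK (-0.74, adjusted p = 0.019). CCNL1 was also lower in all 10 A clones than in any N clone. TNFAIP3 and PTGS2, inflammatory genes downstream of NF-kappaB, were higher, by 2.68 (adjusted p = 0.00017) and 2.00 (adjusted p = 0.048) on the log2 scale.

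Among other AP-1, ATF, CREB and MAF partners, 7 of 20 tested were called, against 20.6% of all genes. Of the 7, 4 were lower and 3 higher in A, and the median log2 fold change over the list was -0.14. The lower genes with the smallest adjusted p were ATF1 (-0.48, adjusted p = 0.0017), ATF7 (-0.56, adjusted p = 0.0031) and ATF2 (-0.39, adjusted p = 0.0056). The higher ones were CREB3 (0.53, adjusted p = 0.012), MAFG (0.49, adjusted p = 0.013) and BACH1 (1.04, adjusted p = 0.028), of which MAFG and BACH1 encode partners of each other. ATF2 and ATF7 encode partners of JUN, and of the 6 named genes only BACH1 changed by as much as 2-fold.

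Of the kinases and serum response factors upstream of the members 3 of 19 tested were called, against 20.6% of all genes: MAPK9 (JNK2) was higher by 0.25 (adjusted p = 0.025), and MKL1, a cofactor of serum response factor, and RPS6KA3 (RSK2) were lower, by -0.29 (adjusted p = 0.037) and -0.49 (adjusted p = 0.038). That count was 1 without N 20-15, A 20-106, A 22-16 or A 22-27. In the list of ERK feedback genes and EGR corepressors 5 of 19 were called, against 20.6% of all genes, 10.3% as higher in A. Each of the 5 was a feedback gene and higher in A, and the median log2 fold change over the list was 0.46. DUSP5, a nuclear ERK phosphatase, went from 30.2 ± 14.6 CPM in N to 83.9 ± 50.2 CPM in A (SD, n = 10 each, log2 fold change 1.59, adjusted p = 0.0055). SPRED2 and PHLDA1 followed at 1.19 (adjusted p = 0.0085) and 0.84 (adjusted p = 0.0098). The EGR corepressors NAB1 (-0.25, adjusted p = 0.39) and NAB2 (-0.08, adjusted p = 0.73) were not called. At an unadjusted p under 0.05, 8 genes of the list were higher and 1 was lower, DUSP7 (-0.64, adjusted p = 0.059).

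Most of the tested genes known in other cells as AP-1 targets were called higher in A. Of 18 listed, 13 were tested and 8 were called, each higher in A, with a median log2 fold change of 1.09. Of all genes tested 20.6% were called, 10.3% as higher in A. HMOX1 (-0.69, edgeR unadjusted p = 0.028, adjusted p = 0.095) and PLAU (-0.55, adjusted p = 0.39) had negative values and were not called. IL6, an inflammatory cytokine, was near the limit of detection in N (0.378 ± 0.781 CPM) and at 4.85 ± 10.3 CPM in A (SD, n = 10 each, log2 fold change 3.78, adjusted p = 0.00079). Single clones carried both means: A 20-106 held 34.1 CPM and N 20-15 2.52 CPM, and without them the means were 1.60 ± 0.887 CPM in A and 0.14 ± 0.225 CPM in N (SD, n = 9 each), with log2 fold changes of 3.77 without A 20-106 (adjusted p = 0.0017) and 3.78 without N 20-15 (adjusted p = 0.0016). PLAUR, the urokinase receptor, had a log2 fold change of 2.44 (SE 0.52, adjusted p = 0.0051), and IL11 one of 2.42 (SE 0.65, adjusted p = 0.016). The list was drawn from general knowledge of AP-1, and binding of any member to these genes was not measured here.

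Other differences between the groups moved alongside. Proliferation genes were called in 10 of 18, each lower in A, where 20.6% of all genes were called and 10.3% called lower. They were led by CDK1, AURKB and TOP2A (log2 fold changes of -1.37, -0.76 and -1.42, adjusted p of 0.0069, 0.0087 and 0.024), and their summed level ran from 259 to 975 CPM in N and from 103 to 660 CPM in A. That count was 6 without N 17-23, N 22-5 or A 17-57, 5 without N 20-15, N 22-9 or A 20-106 and 4 without N 23-74. Among the A clones the highest sums, 660 CPM in A 23-62 and 534 CPM in A 22-121, belonged to the 2 clones with the least FOS. Heat shock genes, a sign of stress in handling, summed to 4992 to 8690 CPM in N and 6392 to 8262 CPM in A, with 1 of 13 called (HSPD1, -0.43, adjusted p = 0.029). That count was 0 without N 23-74, A 22-11, A 22-16 or A 23-68 and 2 without N 17-23, N 22-18, A 17-57 or A 22-121. The part of these in the changes of the members was not tested.

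The labelled cell type was checked against its markers. For the counts of called markers below, 20.6% of all genes were called. All 9 MSC markers had reads in every clone, with COL1A2 at a mean of 16800 CPM, but NT5E, THY1 and ENG were at 0.611%, 0.788% and 5.5% of their N medians in N 22-5. The sums of the 9, mostly collagens, ran over 23387 to 44114 CPM in N and 31720 to 54483 CPM in A and overlapped, with 1 of 9 called (COL3A1, 0.93, adjusted p = 0.013). Macrophage markers summed to at most 10.9 CPM in N and 12.6 CPM in A, PTPRC being at 0 in 18 clones and ITGAM in 19, and the 1 marker that passed the filter, CD68, was higher in A (1.06, adjusted p = 0.016). Endothelial markers, of which VWF was the highest on average and CLDN5 was at 0 in all 20 clones, summed to 1.07 to 41.3 CPM in N and 5.12 to 23.7 CPM in A. Of the 3 tested edgeR called 0, with 1 at an unadjusted p under 0.05 and 1 called by DESeq2, and it called 1 without N 17-23, N 20-15, A 17-57 or A 20-106. Smooth muscle and pericyte markers summed to 1085 to 10057 CPM in N and 4428 to 11731 CPM in A, TAGLN being the highest on average, and 3 of 7 were called, each higher (NOTCH3, CSPG4 and MYH11 at 2.99, 1.76 and 3.04, adjusted p of 0.0052, 0.013 and 0.048). That count was 6 without N 22-17 and 5 without N 22-18.

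Mesothelial markers set some clones apart. They summed to 8.82 to 9198 CPM in N and 7.73 to 1095 CPM in A, KRT8 being the highest on average, CALB2 was at 0 in 18 clones, and 1 of 6 tested was called (MSLN, -1.97, adjusted p = 0.039). The call on MSLN depended on single clones, 12 of which ended it when left out: N 22-5, N 22-9, N 23-10, N 23-22, N 23-23, N 23-74, A 22-16, A 22-27, A 22-121, A 23-14, A 23-68 and A 23-108. Without N 22-18 the markers called were 2. The highest sums were those of N 22-5, N 22-9, A 22-11 and A 22-16, all of animal 22. Without these clones calls over all genes went from 2658 to 1393, 10.9% of the genes tested, and 3 members were called, FOS (-2.30, adjusted p = 0.024), FOSB (-2.94, adjusted p = 0.05) and JUN (-1.04, adjusted p = 0.014), while EGR1 (-1.86, adjusted p = 0.091), ATF3 (-0.63, adjusted p = 0.11) and JUND (-0.57, adjusted p = 0.19) kept a negative value and lost the call. Other counts were lower too: proliferation genes 1 in place of 10, known AP-1 target genes 3 in place of 8, other immediate early transcription factors 5 in place of 8 and other immediate early genes 3 in place of 6. The 2 highest, N 22-5 and N 22-9, were also the clones with the lowest FOSB and EGR1 of the N group.

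Libraries held 14908802 to 43111345 counted reads in N (median 16316704) and 14615493 to 29185355 in A (median 16112862). Counts of single members ran from 3 for EGR2 to 15826 for FOSB, so that counting error was small except for EGR2 in most clones, FOSB in A 22-121 (8 reads) and A 23-62 (12 reads) and EGR1 in A 22-121 (24 reads).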

How the data were processed

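The authors deposited raw counts per gene for 20 clonal cultures. Per the labels and methods, RNA was extracted with TRIzol, libraries were made with a directional kit, and reads were trimmed with Trimmomatic 0.36, aligned with STAR 2.5.2b to ARS-UCD1.2 and counted with Subread 1.5.2 as unique reads within exons. The strand setting and the treatment of overlapping genes are not given in the sources used here. Of the 33064 gene rows, 1 without a name, with 0.113% to 0.333% of each library, was not used. Columns from samples outside the series numbered 0.

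From these counts, changes were tested by edgeR 4.0.16 under R 4.3.3 (TMM, default filter on the condition, robust quasi-likelihood test, Benjamini-Hochberg adjustment over 12900 genes), with animal as a block, as in the study, and thresholds of 0.05 and 2-fold. The SE is the log2 fold change divided by the square root of F. Levels are CPM scaled by TMM factors, log2 CPM used a prior count of 2, and differences within animals are of mean log2 CPM. In 90 within-condition pairs no library was a repeat of another. Clones were paired by animal, and in animals 17, 20, 22 and 23 the mean deviations of A and N from their conditions had an r of 0.253, 0.193, 0.241 and 0.440. Spread was tested by exact permutation within animals, adjusted over all genes tested, and correlations with 100000 resamples within animal and condition. The fits of changes and interactions were checked on simulated counts, and the spread and correlation tests on simulated normal values.

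The members and gene lists were chosen with earlier results of these data known. All members were named. From each list up to 3 called genes per direction with the smallest adjusted p were named, from each marker list the marker with the highest level, and for FOS, EGR1 and FOSL1 the 5 genes with the highest r. The alternatives were no animal block, other normalizations and filters, DESeq2 1.42.0, limma-voom in limma 3.58.1, counts summed per animal and condition, single animals, and each animal or clone left out. Gene symbols of 10 of 10 members matched RefSeq's ARS-UCD2.0 table, used for overlapping neighbours only. Genome and promoter sequences were not used here, so no promoter motif was searched, and no coordinates are given because the builds differ.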

Additional observations from a re-analysis of the deposited data

Results flagged for a closer look

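EGR1 in N 17-23 stood apart from the other N clones. Its level was 570.5 CPM, the next highest was 297.5 CPM in N 20-15, and on the log2 scale this gap was 0.6 of the whole range of the 10 N clones. The 2 conditions of each of the 10 members gave 20 groups, of which this was the 1 that held such a clone, and chance alone marks about 1 in 20. N 17-23 was the only N clone of its animal, so clone and animal cannot be told apart.

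JUND moved in opposite directions in single animals. The log2 difference between A and N was 0.484 in animal 17, against -0.222 in animal 20 and -1.2 in animal 22, so the animals were apart by 0.706 and 1.68. Animals 17 and 20 have 1 clone per condition, and these differences were not tested.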

How the results depend on the processing

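Leaving out single clones gave 4 to 7 called members (main value 6) and 4 to 6 called at 2-fold or more (main value 5). Larger departures came with fewer samples or residual degrees of freedom. With counts summed per animal and condition 0 members were called by edgeR (5 at an unadjusted p under 0.05; of all genes 0 were called and 2243 had an unadjusted p under 0.05), with animal 22 alone 2 (153 of all genes called), with animal 23 alone 0 (3 unadjusted, 800 genes called), without animal 22 1 (1471 genes), without animal 23 1 (32 genes), and without the 4 clones highest in mesothelial markers, chosen after seeing the data, 3 (1393 genes). At 2-fold or more the counts were 0, 2, 0, 0, 1 and 3 in the same order. The cause was not tested. Without the animal block 4 were called, JUND (adjusted p = 0.057) and ATF3 (adjusted p = 0.074) being lost; with DESeq2 7, with limma-voom 6, with upper-quartile normalization 6, with DESeq2 size factors 5, with no filter on low counts 4, and with a minimum of 10 counts per clone 5, where FOSB and EGR2 were not tested. FOS, FOSB, JUN, JUND, ATF3 and EGR1 were negative under every alternative in which they were tested. The sign of FOSL2 turned with animal 22 alone (-0.2231), without animal 17 (-0.007637), without animal 23 (-0.01852) and with single clones left out (-0.01088 to 0.1758), and that of JUNB with animal 23 alone (0.06606). Leaving out single clones, the differences between animals 23 and 22 ran from -0.06051 to 1.194 for FOSB, -0.3979 to 0.3611 for FOSL1, -0.1913 to 0.463 for JUNB and -0.1029 to 0.6952 for JUND, and none of the members was called in any of these fits. The planned count of members past the threshold for spread, corrected over the members only, was 2 and ran from 0 to 3 when each clone was left out. That alternative, the adjustment over all genes given above, and the fits of FOS and EGR1 within conditions and of IL6 without single clones were added after seeing the data. Both counts, 2 for spread and 1 for correlations, were the same with a prior count of 0.5 and with DESeq2 size factors. Depth limits EGR2, which had 3 reads in 1 clone.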
